A study of Mus musculus with 2 samples.

Results

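The regions described here lie at the *Myc*-*Pvt1* locus and at 7 other genes that act in the G1 phase of the cell cycle: *Ccnd1*, *Ccnd2*, *Ccnd3*, *Ccne1*, *Cdkn1a*, *Cdkn1b* and *Cdk6*. They were taken from lists of Etv4 and Etv5 binding regions determined by ChIP-seq in EpRas cells, an H-Ras-transformed derivative of the mouse mammary epithelial line EpH4. Both libraries came from cells kept in 4% serum and given 1 ng/ml TGF-β3 for 1.5 h, so that the oncogenic Ras and the TGF-β treatment are common to everything compared here. The Etv4 library was made with a rabbit polyclonal antibody and the Etv5 library with a mouse monoclonal antibody. ChIP-seq recovers and sequences the DNA fragments crosslinked to a protein, and a region is a stretch of the genome where such fragments pile up. Each antibody had 1 library and no replicate, the antibodies differ, and untreated cells and a library without specific antibody were not analysed here, so no test between the lists was made.

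A region was taken when it lay inside 1 of the 7 genes or within 50 kb of it, or, for *Myc* and *Pvt1*, anywhere from 500 kb before to 500 kb after the pair. This rule gave 54 of the 13636 Etv4 regions and 26 of the 8297 Etv5 regions, 80 of 21933 in all. The *Myc*-*Pvt1* window held 30 of the Etv4 and 17 of the Etv5 regions, and the other 7 genes held 24 and 9. The lists contain no read counts, so the depth behind a region is unknown, and a longer list can come from a deeper library. For a share of regions, the interval that follows it is its exact 95% interval by the Clopper-Pearson method. It covers counting error only and takes neighbouring regions as independent. Where a count is 0, the limit given after it is instead 3 counts of the total.

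D-type cyclins (*Ccnd1*, *Ccnd2*, *Ccnd3*) bind Cdk4 or Cdk6 and carry mitogenic signals into G1, and cyclin E (*Ccne1*) with Cdk2 drives the entry into S phase. The proteins encoded by *Cdkn1a* (p21) and *Cdkn1b* (p27) inhibit cyclin-dependent kinases, and TGF-β is known to arrest many epithelial cells in G1 through such inhibitors and through a lower level of Myc. *Myc* encodes a transcription factor that promotes growth and proliferation, *Pvt1* is a long non-coding RNA gene just downstream of it, and the wide stretch around both is known to hold distal enhancers of *Myc*. Etv4 and Etv5 are transcription factors of the ETS family, which bind sequences with a GGAA core and are often found beside AP-1, the Jun-Fos factors that bind TGACTCA or TGAGTCA.

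The sequences that follow are printed because the results below turn on them: they show the ETS and AP-1 letters in distal regions found in both lists, and the stretches before starts of *Myc*, *Cdkn1a* and *Cdk6* where only an Etv4 region was found. Positions are base pairs of mm10 (GRCm38), counted from 1, and capitals mark a match. The ETS pattern searched was CAGGAAGT or CCGGAAGT, the AP-1 pattern was TGACTCA or TGAGTCA, the E-box was CACGTG and the SP1 pattern was GGGCGG, each on both strands. The *Pvt1* sequence with an ETS match is chr15:62079217-62079316 on the minus strand. It lies in an intron, 100 of its 100 bases were covered by a region of each list, and its match starts 93.9 kb after the *Myc* start. The *Gm41333* sequence is chr15:62698919-62699018 on the minus strand, in an intron of that non-coding gene 714 kb after the *Myc* start, and holds an ETS and an AP-1 match. The next sequences were chosen after their values were seen: chr15:62328578-62328676 on the plus strand, from the pair of overlapping regions with the lowest region numbers, and chr15:62079483-62079633 on the plus strand, from the pair with the most AP-1 matches. Both lie in introns of *Pvt1*.
Pvt1 intron, ETS match: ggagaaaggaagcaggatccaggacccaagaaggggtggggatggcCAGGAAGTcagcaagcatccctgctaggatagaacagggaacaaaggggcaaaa
Gm41333 intron, ETS and AP-1 matches: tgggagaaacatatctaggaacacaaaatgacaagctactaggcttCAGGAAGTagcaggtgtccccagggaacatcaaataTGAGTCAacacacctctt
Pvt1 intron, AP-1 match in the pair with the lowest region numbers: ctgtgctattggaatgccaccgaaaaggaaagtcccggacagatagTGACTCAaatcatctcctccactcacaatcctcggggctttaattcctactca
Pvt1 intron, 3 AP-1 matches: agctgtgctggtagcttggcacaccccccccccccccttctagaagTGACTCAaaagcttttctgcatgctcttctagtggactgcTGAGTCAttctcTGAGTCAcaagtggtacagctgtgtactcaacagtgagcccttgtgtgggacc

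The stretches before gene starts are chr15:61985191-61985340 for *Myc*, chr17:29093569-29093768 for the downstream start of *Cdkn1a* and chr5:3343532-3343731 for a downstream start of *Cdk6*, all on the plus strand. *Myc*, *Cdkn1a* and *Cdk6* were the member genes with an annotated start where a region covered at least 100 of the 200 bases before it. Other starts of the same genes also met this, 1 start of each is shown, and the choice among them was made with the values known. For *Myc*, 50 bases that RefSeq places inside the transcript were left out. All 200 bases shown for *Cdkn1a* lie in an exon that GENCODE places on the opposite strand. Etv4 regions covered 109 of the 150 bases printed for *Myc*, 200 of the 200 for *Cdkn1a* and 121 of the 200 for *Cdk6*, and Etv5 regions covered 0 bases of each. None of these sequences holds an ETS or AP-1 match. *Myc* has 1 SP1 match, *Cdkn1a* has 2, and *Cdk6* has 1 E-box. The SP1 letters occurred in 31.05% of 32851 stretches of 200 bases before RefSeq gene starts, the E-box in 5.26%, the ETS pattern in 4.88% and the AP-1 pattern in 3.66%.
Myc, before the start: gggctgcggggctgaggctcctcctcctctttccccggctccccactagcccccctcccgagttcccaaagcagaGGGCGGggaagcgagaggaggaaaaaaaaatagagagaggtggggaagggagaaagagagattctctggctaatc
Cdkn1a, before the downstream start: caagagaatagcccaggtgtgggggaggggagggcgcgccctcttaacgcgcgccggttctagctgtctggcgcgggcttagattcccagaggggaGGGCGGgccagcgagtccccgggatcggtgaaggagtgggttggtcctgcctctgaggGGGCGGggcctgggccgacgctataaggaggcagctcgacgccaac
Cdk6, before a downstream start: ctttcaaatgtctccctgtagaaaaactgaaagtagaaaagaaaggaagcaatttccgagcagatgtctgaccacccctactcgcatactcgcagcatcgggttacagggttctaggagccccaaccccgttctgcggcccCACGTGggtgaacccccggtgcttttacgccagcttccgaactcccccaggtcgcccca

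Around *Myc*, Etv4 regions lay in a chain over the gene and Etv5 regions did not. *Myc* (chr15:61985391-61990374, plus strand) had 7 Etv4 regions inside the gene or within 50 kb, of which 4 were in the gene, and 2 Etv5 regions, of which 0 were in the gene. The Etv4 regions covered 60.7% of the gene length, a share that 0.501% of 21938 protein-coding genes reached. A covered share depends on gene length, and *Myc* measures 4.98 kb. The density of 6.67 Etv4 regions per 100 kb of gene and flanks was reached by 2.13% of these genes. No Etv4 region of this chain overlapped an Etv5 region, where 37.8% of the whole Etv4 list did, so that a region without a partner was the more common case. The nearest Etv5 region was chr15:61998767-61999071, at 13.5 kb from the *Myc* start.

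The chain began before the gene with chr15:61983124-61983721, whose midpoint was at -1.97 kb from the *Myc* start and 0.12 kb from the start of the non-coding gene *Gm37947*. The next region, chr15:61985232-61986117, spanned the *Myc* start and had 561 of its 886 bp in exons. Next came chr15:61986202-61987101, with 68 of 900 bp exonic and the rest in the first intron. The region chr15:61987262-61988281 reached into the coding sequence (772 of 1020 bp), and chr15:61989438-61989813 lay wholly in it (376 of 376 bp). The last, chr15:61990437-61992261, began 0.063 kb after the end of the gene and measured 1825 bp, and it held the only AP-1 match of the chain. The regions inside the gene had their midpoints, in order, at 0.052, 0.383, 0.349 and 2.20 kb from the nearest of its annotated starts. Thus the Etv4 regions lay over the gene and on both sides of it.

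Besides positions, the lists give a region number and a score that is 1000 for every region. The number runs from 1 to the length of the list, its criterion is not stated, and low numbers fall on long regions. The chain had numbers 7271, 2683, 2378, 6500, 11225 and 3226 of 13636, which are 53.3, 19.7, 17.4, 47.7, 82.3 and 23.7% of the list. The lowest number in the chain was thus that of the region over the first intron.

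Between *Myc* and *Pvt1*, the Etv4 region chr15:62028277-62029083, at 43.3 kb from the *Myc* start, held an ETS match (CAGGAAGT, chr15:62028764-62028771) and an AP-1 match. The Etv5 region at 13.5 kb also held an ETS match (chr15:61998782-61998789), but its number, 8139 of 8297, was at 98.1% of that list. The other Etv5 region, chr15:62036250-62036616, lay 1.55 kb before the *Pvt1* start and held neither pattern. Both lists were therefore present between the genes, without overlap.

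**Figure D1:**
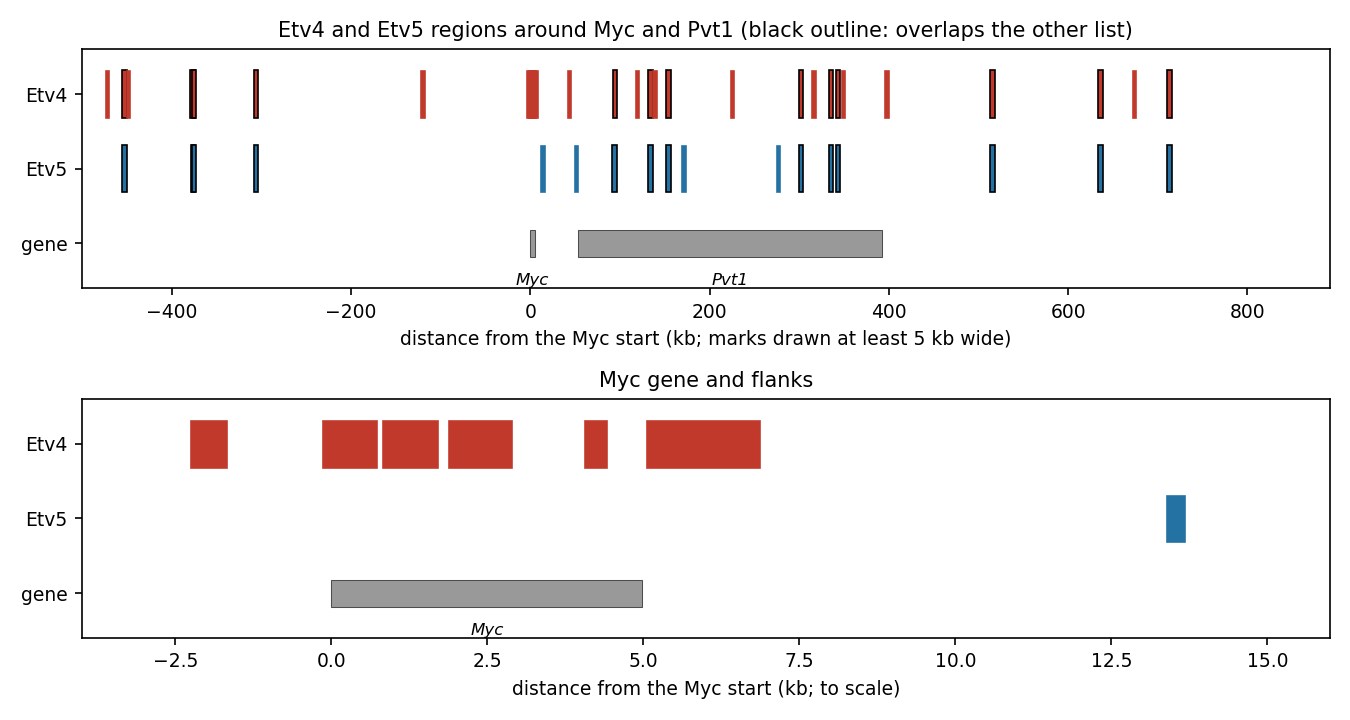
Positions of Etv4 regions (red) and Etv5 regions (blue) relative to the *Myc* start in kb, for the whole *Myc*-*Pvt1* window (upper panel, 30 and 17 regions) and for *Myc* and its flanks to scale (lower panel); a black outline marks a region that overlaps the other list. The 4 Etv4 regions inside *Myc* have no outline and no Etv5 region lies over the gene, whereas the outlined pairs stand in *Pvt1* and in the outer parts of the window.

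*Pvt1* (chr15:62037986-62378096, plus strand) held regions of both lists, among them 6 overlapping pairs. Of 11 Etv4 regions inside the gene 6 overlapped an Etv5 region, where 37.8% of the whole list did, and of 8 Etv5 regions 6 overlapped an Etv4 region, where 63.2% of the whole list did. With so few regions, these counts are not read as particular to *Pvt1*. All of these 6 pairs were intronic or, in 1 case, within 2 kb of the start of a small non-coding gene (*Gm27782*) inside *Pvt1*. No region of either list covered any of the 200 bases before an annotated start of *Pvt1*. Including 50 kb to each side, *Pvt1* had 16 Etv4 and 10 Etv5 regions; some of these are also counted for *Myc*, since the flanks of the genes overlap.

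Several pairs in *Pvt1* carried low region numbers in both lists. The pair at chr15:62327952-62329363 (Etv4) and chr15:62328132-62328959 (Etv5) had number 216 of 13636 and number 148 of 8297, the lowest numbers of all member regions in each list. It lay 343 kb from the *Myc* start and held 2 AP-1 matches, the first of which is printed above, but no ETS match. The pair at chr15:62286238-62288074 and chr15:62286281-62287962 had numbers 350 and 267, measured 1837 and 1682 bp, and held 1 AP-1 match. The pair at chr15:62078959-62080077 and chr15:62079067-62079921 had numbers 420 and 929, held the 3 AP-1 matches printed above and 1 E-box, and its Etv5 region had the ETS match in the 500 bp searched around its midpoint. These pairs thus shared AP-1 letters, and ETS letters were found in the pair at 94.1 kb alone.

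The other 3 pairs in *Pvt1* were chr15:62118680-62119807 with chr15:62118732-62119674 (numbers 671 and 2328), chr15:62139090-62139795 with chr15:62139081-62139742 (3151 and 4128) and chr15:62320652-62321547 with chr15:62320812-62321418 (893 and 1073). Their midpoints differed by 40, 31 and 16 bp. The pair at 134 kb held no match of any of the patterns searched, that at 154 kb held 2 AP-1 matches and that at 336 kb held 1. The 5 Etv4 regions of *Pvt1* outside the pairs had numbers from 3398 to 13623, all above those of the pairs. The 2 Etv5 regions outside the pairs had 4037 and 5777, and the pair at 154 kb lay between them.

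Overlapping pairs also stood far from both genes. Upstream of *Myc*, all 4 Etv5 regions overlapped 4 of the 8 Etv4 regions. The longest was chr15:61531385-61533564, an intergenic Etv4 region of 2180 bp at -453 kb (number 647), with an Etv5 region of 1679 bp inside it (number 521). At -376 kb, chr15:61609295-61610278 had numbers 521 and 419, and all 984 bp of it lay in the Etv5 region. Next to it, chr15:61608102-61608926 had numbers 1609 and 1982, and at -306 kb chr15:61678563-61679551 had 2650 and 3353. The other 4 Etv4 regions upstream did not overlap, among them that over the start of *Gm37947*.

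Downstream of *Pvt1*, all 3 Etv5 regions overlapped 3 of the 5 Etv4 regions. The pair at 713 kb (chr15:62698428-62699174, numbers 1876 and 2584) held the ETS and AP-1 matches of the *Gm41333* sequence and a RUNX match, and was the only pair whose regions both held ETS letters in the 500 bp searched. The pair at 516 kb (chr15:62500787-62501607) had numbers 1102 and 1391. The pair at 636 kb (chr15:62621328-62621919, numbers 5927 and 1586) stands on repeated sequence: 86.0% of its 36-base sequences occur more than once in the genome, so that reads of other copies could be placed there. It was the only such pair among the member regions, and the counts without it stand with the other alternatives at the end.

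Next, the *Myc*-*Pvt1* window was set beside other windows of its length (1393 kb), because it holds the start of 1 protein-coding gene, *Myc*, and otherwise non-coding sequence. It held 21.5 Etv4 regions per Mb and 12.2 Etv5 regions per Mb. Of 1904 other windows, 44 had at least as many Etv4 regions (2.31%) and 61 at least as many Etv5 regions (3.20%). The median over those windows was 4 Etv4 and 3 Etv5 regions. Of the 312 windows with 0 or 1 protein-coding gene start, none had as many: the highest was 15 Etv4 and 7 Etv5 regions, and the median was 1 for each list. This depends on the cut at 1 start. Within 10 Mb of *Myc*, segments of 1 Mb with 2 such starts held from 5 to 25 Etv4 and from 2 to 16 Etv5 regions. The segment at *Myc* held 26 and 14.

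Chromosome 15 as a whole was also denser than the genome, with 8.77 Etv4 regions per Mb compared with 5.00 over all nuclear chromosomes, and 5.67 Etv5 regions per Mb compared with 3.04. Of 70 other windows on chromosome 15, 7 (10%) reached the Etv4 count and 12 (17.1%) the Etv5 count, and their medians were 9 and 6. Within chromosome 15, the window was thus less far from the others than over the whole genome, and the part of the chromosome in these counts was not tested.

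**Figure D2:**
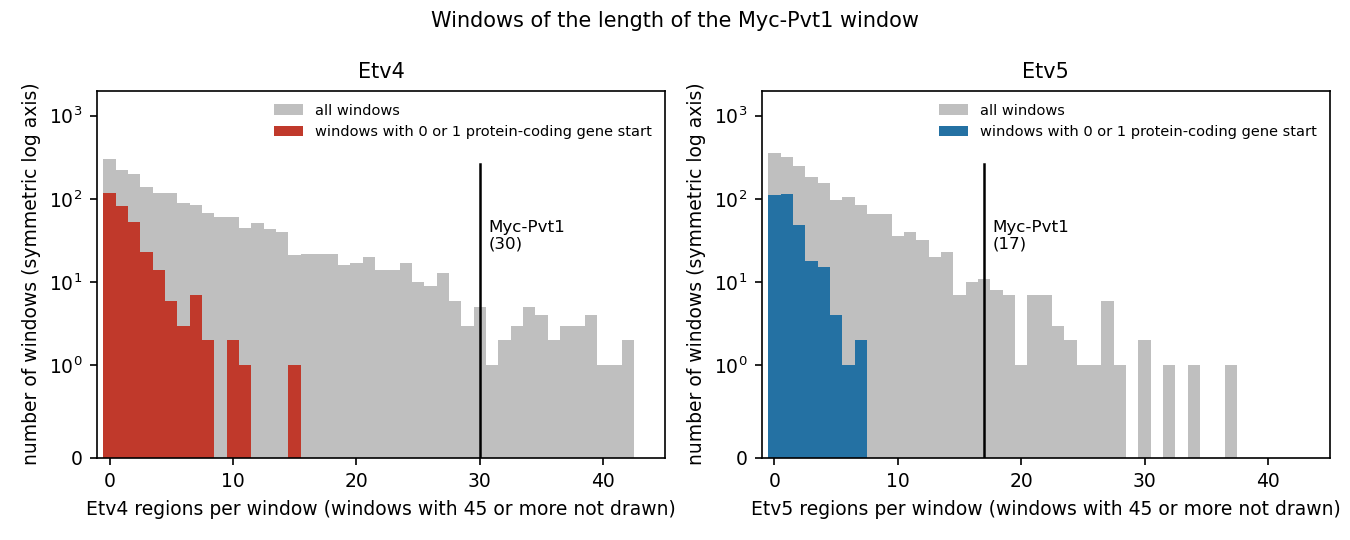
Number of windows of 1393 kb (symmetric log axis) by the number of Etv4 regions (left) or Etv5 regions (right) they hold, for all 1904 other windows (grey) and for the 312 with 0 or 1 protein-coding gene start (colour); a black line marks the *Myc*-*Pvt1* window. The line stands at 30 and 17 regions, beyond every coloured bar, the last of which are at 15 and 7.

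At the other 7 genes, Etv4 regions lay at the start or in the body of *Ccnd1*, *Cdk6* and *Cdkn1a*, and no Etv5 region lay within 2 kb of the annotated start of any of the 7. Of the 8 protein-coding members (the 7 genes and *Myc*), 6 had at least 1 Etv4 region inside or within 50 kb (75%, interval 34.9 to 96.8%), where 53.4% of all protein-coding genes did, and 6 had at least 1 Etv5 region (the same share and interval), where 42.7% did. Regions of both lists were present at 5 of the 8, compared with 36.4% of all protein-coding genes, and an overlapping pair at 3 of the 8 (37.5%), compared with 29.5%. An Etv4 midpoint within 2 kb of the gene start was found for *Myc*, *Ccnd1* and *Cdk6*, 3 of 8 (37.5%, interval 8.52 to 75.5%), where 15.4% of all protein-coding genes had one. For Etv5 the count was 0 of 8, which allows a share of up to 37.5%, where 8.73% of all protein-coding genes had one. With 8 genes the intervals are wide, and each interval given here holds the share of all genes.

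**Figure D3:**
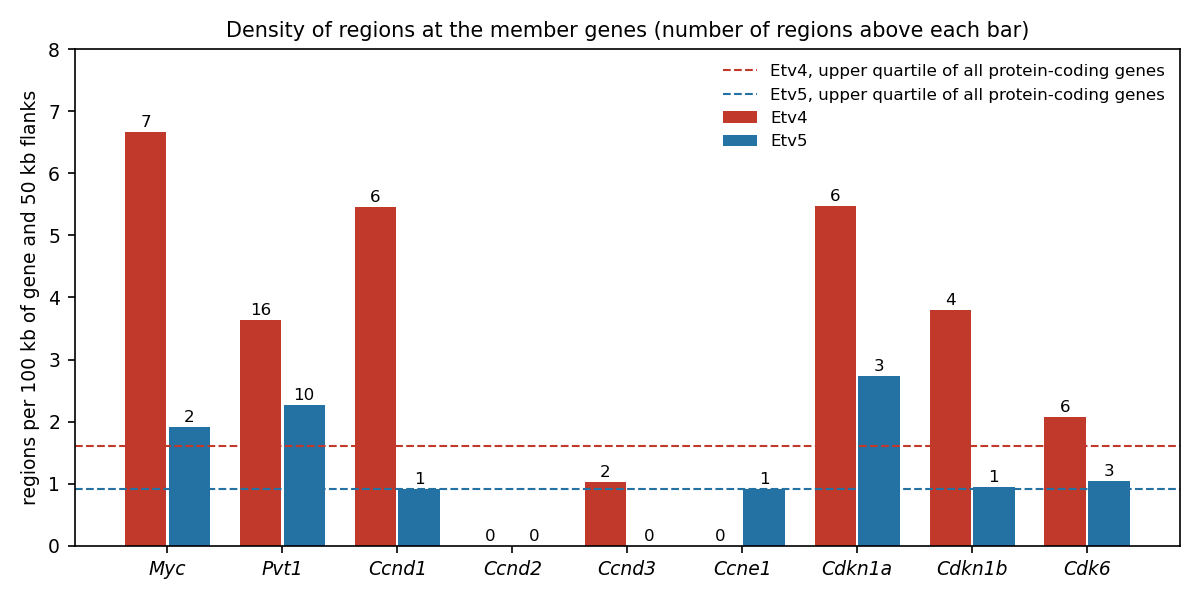
Etv4 (red) and Etv5 (blue) regions per 100 kb of gene and 50 kb flanks for each member gene, with the number of regions above each bar and the upper quartiles of all protein-coding genes as dashed lines (1.60 and 0.911). *Myc*, *Ccnd1* and *Cdkn1a* have the highest Etv4 bars (6.67, 5.45 and 5.47), *Ccnd2* has no region of either list, and *Ccne1* has no Etv4 region.

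*Ccnd1*, encoding cyclin D1, had 6 Etv4 regions and 1 Etv5 region (5.45 and 0.909 per 100 kb). The gene lies at chr7:144929931-144939925 on the minus strand. The Etv4 region chr7:144939373-144939931 spanned the annotated start and had its midpoint 0.273 kb inside the gene. The region chr7:144937946-144938244 covered the start of a shorter transcript at 1.83 kb. The region with the lowest number of these 7 genes, 453 of 13636, was chr7:144929392-144931367 at the other end of the gene. It measured 1976 bp and lay wholly in 3′ untranslated sequence. Part of it lay in *Ccnd1*. The rest lay past the end of that gene, in *LTO1* on the opposite strand, whose last exon overlaps that of *Ccnd1*. Altogether Etv4 regions covered 27.8% of the *Ccnd1* gene, a share that 1.09% of protein-coding genes reached, and Etv5 regions covered 0%. The Etv4 density of 5.45 per 100 kb was reached by 3.90% of protein-coding genes.

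Upstream of *Ccnd1*, an Etv4 region (chr7:144943216-144943579) and an Etv5 region (chr7:144942919-144943525) overlapped by 310 bp, with midpoints at -3.47 and -3.30 kb from the start. In this pair the numbers diverged: 1544 of 8297 in the Etv5 list (18.6%) and 11576 of 13636 in the Etv4 list (84.9%). Each region held 2 E-boxes, the letters that Myc and its partner Max bind, and no ETS or AP-1 match. The farthest Etv4 region, at -42.9 kb, held an AP-1 match.

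*Ccnd2*, encoding cyclin D2 (chr6:127125162-127152193, minus strand), had no region of either list inside it or within 50 kb. The nearest Etv4 region lay 67.4 kb away and the nearest Etv5 region 719 kb away. *Ccnd3*, encoding cyclin D3 (chr17:47505051-47599691, plus strand), had 2 Etv4 regions and no Etv5 region, and neither was in the gene. The Etv4 region at chr17:47611135-47611799 covered the start of the neighbouring gene *Bysl* (midpoint 0.025 kb from it). It held CCGGAAGT at chr17:47611303-47611310, the only member region with this form of the ETS pattern in the 500 bp searched. The other Etv4 region, at -30.9 kb, held no match. The 3 D-type cyclin genes thus differed widely, from 6 Etv4 regions to 0.

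*Cdk6*, encoding a kinase partner of the D-type cyclins (chr5:3341485-3531008, plus strand), had 6 Etv4 and 3 Etv5 regions, and all 3 Etv5 regions overlapped an Etv4 region. At the start were Etv4 regions alone: chr5:3341501-3342098, 0.314 kb from the start, and chr5:3343611-3344216, at 2.43 kb, over several downstream starts. Both held an E-box, and 10.7 and 25.6% of their 36-base sequences occur more than once in the genome. The pairs were distal. The pair at -40.2 kb (chr5:3300874-3301766 with chr5:3300779-3301700) had numbers 2370 and 1006 and an AP-1 match in each region. The pair at 153 kb (chr5:3494050-3494935 with chr5:3494314-3494911) had numbers 2157 and 3725, also with an AP-1 match in each. The pair at 160 kb (chr5:3501673-3502290 with chr5:3501629-3502299) had numbers 3005 and 1514 and no match of any pattern searched.

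*Ccne1*, encoding cyclin E1 (chr7:38097984-38107534, minus strand), had 1 Etv5 region and no Etv4 region. The Etv5 region, chr7:38084835-38085273, lay beyond the end of the gene at 22.5 kb from its start, with number 7134 of 8297 (86.0%). It held 8 SP1 matches and 2 E-boxes and no ETS match. The nearest Etv4 region lay 76.2 kb from the gene.

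The inhibitor genes differed from each other in a similar way. *Cdkn1a* (chr17:29090976-29100727, plus strand) had 6 Etv4 and 3 Etv5 regions. The Etv4 density was 5.47 per 100 kb, which 3.88% of protein-coding genes reached. In the gene lay 3 Etv4 regions, which covered 17.6% of it, a share that 1.74% of protein-coding genes reached. None of these 3 regions was at the annotated gene start. The first, chr17:29093361-29094163 (number 2742), lay over the downstream start at chr17:29093769, at 0.007 kb from it, and the other 2 were chr17:29094688-29095002 and chr17:29095343-29095940, the latter with an AP-1 match. The stretch before that downstream start is the one printed above with 2 SP1 matches.

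Upstream of *Cdkn1a*, an Etv4 region and an Etv5 region overlapped by 262 bp (chr17:29046265-29046677 and chr17:29045949-29046526, at -44.5 and -44.7 kb). As at *Ccnd1*, the numbers in this pair diverged, with 2527 of 8297 for Etv5 (30.5%) and 10886 of 13636 for Etv4 (79.8%). The Etv4 regions on either side of the pair and the 2 other Etv5 regions did not overlap. The Etv5 region at -50.2 kb was just inside the limit of 50 kb, at 49.98 kb from the gene, and lay 1.11 kb from a start of *Srsf3*.

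*Cdkn1b* (chr6:134920401-134925513, plus strand) had 4 Etv4 regions and 1 Etv5 region, none in the gene and none overlapping. The Etv4 regions lay at starts of neighbouring genes. The region chr6:134897811-134898274, at -22.4 kb, was 0.081 kb from the start of *2810454H06Rik* and 0.117 kb from that of *Gpr19*, and held an ETS match (CAGGAAGT, chr6:134897877-134897884). The region chr6:134898315-134898650 was 0.096 kb from a start of *Gpr19*. Downstream, chr6:134927994-134928809, at 8.0 kb, was 0.691 kb from the start of *Lockd*, a non-coding gene next to *Cdkn1b*, and chr6:134930298-134930892 was 0.483 kb from that of *Gm44238*. The Etv5 region, chr6:134892299-134892605, had number 5316 of 8297 and held neither an ETS nor an AP-1 match.

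**Figure D4:**
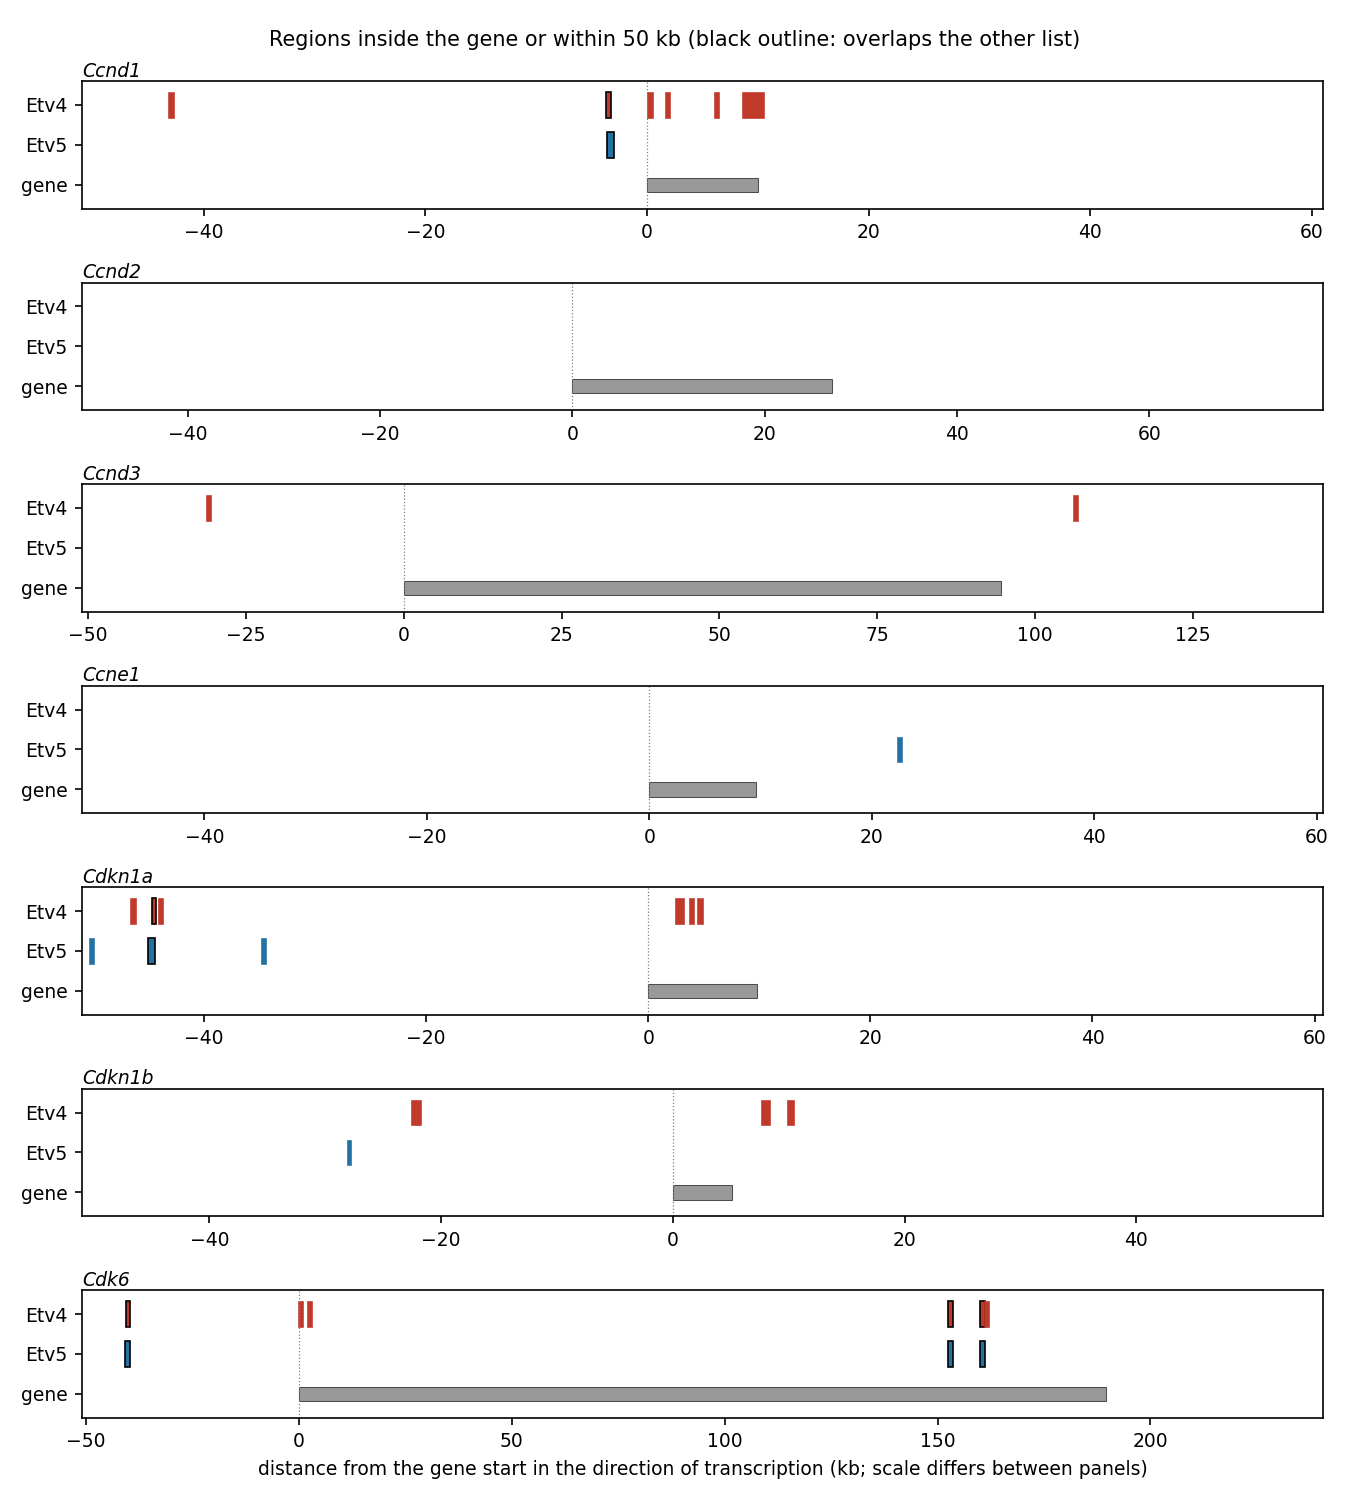
Etv4 (red) and Etv5 (blue) regions at 7 genes, drawn by distance from the gene start in the direction of transcription in kb (the scale differs between panels, narrow regions are widened); grey boxes are the genes and a black outline marks overlap with the other list. Etv4 regions stand in *Ccnd1*, *Cdkn1a* and *Cdk6*, the outlined pairs stand outside *Ccnd1* and *Cdkn1a* and outside or deep inside *Cdk6*, and *Ccnd2* is empty.

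Some regions lay just beyond the limit of 50 kb. The nearest of these were at 53.5 kb from *Ccnd3* (Etv4), 54.3 kb from *Cdkn1b* (Etv4), and 58.0 and 58.5 kb from *Cdkn1a* (Etv4 and Etv5). The farthest ones inside it were at 49.98 kb from *Cdkn1a* (Etv5) and 46.2 kb from the same gene (Etv4).

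Over all members, the share of regions that overlapped the other list had an interval that held the share of the whole list. Overlap with Etv5 was found for 18 of the 54 Etv4 member regions (33.3%, interval 21.1 to 47.5%), where 37.8% of the whole list overlapped. Overlap with Etv4 was found for 18 of the 26 Etv5 member regions (69.2%, interval 48.2 to 85.7%), where 63.2% of the whole list overlapped. In the *Myc*-*Pvt1* window it was 13 of 30 Etv4 regions (43.3%, interval 25.5 to 62.6%) and at the other genes 5 of 24 (20.8%, interval 7.13 to 42.2%), and both intervals hold the share of the whole list. Inside the member genes other than *Pvt1*, 2 of 16 Etv4 regions overlapped an Etv5 region (12.5%, interval 1.55 to 38.3%), both of them in *Cdk6*, where 34.3% of all Etv4 regions inside protein-coding genes did. The whole-list share lies within that interval.

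Of the Etv4 regions of the members, 18 lay within 2 kb of an annotated transcript start of any gene (33.3%; whole list 36.5%), 18 in introns, 14 in intergenic sequence and 4 in exons. Of the Etv5 regions, 6 lay within 2 kb of a start (23.1%, interval 8.97 to 43.7%; whole list 33.1%), 13 in introns, 7 in intergenic sequence and 0 in exons. Shares of introns, intergenic sequence and exons over the whole lists are not given here, so these counts are not read as particular to the members. With only the starts of protein-coding genes counted, the shares within 2 kb were 25.9% for Etv4 and 3.85% for Etv5. No whole-list share for these starts is given here, so the 2 values have no like value beside them. Within 2 kb of a start lay 5 of the 30 Etv4 regions of the *Myc*-*Pvt1* window (16.7%, interval 5.64 to 34.7%), below the share of the whole list, and 13 of the 24 at the other 7 genes (54.2%, interval 32.8 to 74.4%). For Etv5 the counts were 2 of 17 (11.8%, interval 1.46 to 36.4%) and 4 of 9 (44.4%, interval 13.7 to 78.8%), and both intervals hold the whole-list share. Near starts, 2 of 18 Etv4 regions overlapped an Etv5 region (11.1%, interval 1.38 to 34.7%, which holds the 30.2% of the whole list), and farther away 16 of 36 did (44.4%, interval 27.9 to 61.9%; whole list 42.1%). Both starts with overlap were those of non-coding genes, *Gm27782* in *Pvt1* and *Gm42435* in *Cdk6*.

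Overlapping regions were longer and had lower numbers than the rest. Among the Etv4 member regions, the median length was 890 bp for the 18 that overlapped and 575 bp for the 36 that did not, and the median position by number was 12.8 and 59.2% of the list. The same medians over the whole Etv4 list were 728 and 526 bp, and 28.0 and 61.8%. Among the Etv5 member regions, the 18 that overlapped had a median of 652 bp at 18.4% of the list, and the 8 that did not had 372 bp at 75.1% (whole list 589 and 425 bp, 36.7 and 69.5%). All 18 overlapping Etv5 regions were in the part of the list up to 49.8%. Length can itself raise the chance of an overlap, and its part in these shares was not tested.

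**Figure D5:**
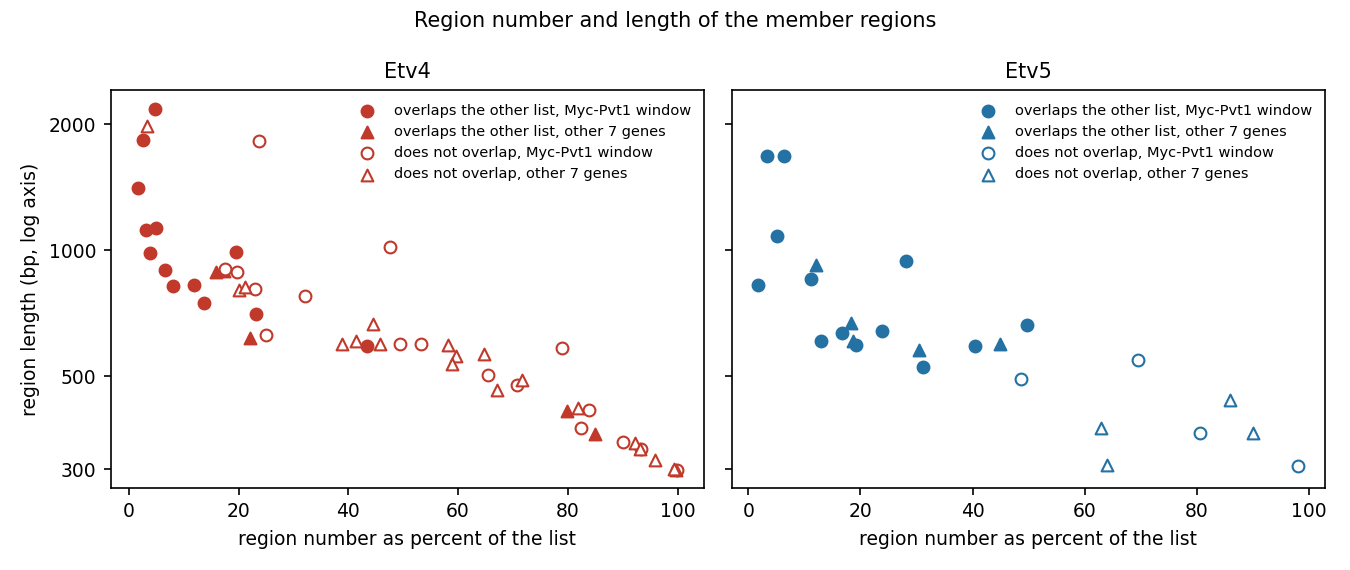
Length of each member region (bp, log axis) against its region number as a percent of the list, for Etv4 (left) and Etv5 (right); filled marks overlap the other list, circles lie in the *Myc*-*Pvt1* window and triangles at the other 7 genes. Filled circles gather at low numbers and at lengths of up to 2180 bp, and the 2 filled Etv4 triangles at high numbers (84.9 and 79.8%) are the pairs upstream of *Ccnd1* and *Cdkn1a*.

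Letter patterns were searched in 500 bp around each midpoint, where a match is a description and not a binding site. The ETS pattern was present in 4 of 54 Etv4 regions (7.41%, interval 2.06 to 17.9%; whole list 10.2%) and 3 of 26 Etv5 regions (11.5%, interval 2.45 to 30.2%; whole list 7.94%). These shares depend on the letters and the window: they were 1.85 and 0% with CCGGAAGT alone or within 200 bp, and 77.8 and 73.1% with a looser pattern (A or C, GGAA, A or G). The AP-1 pattern was present in 18 of 54 (33.3%, interval 21.1 to 47.5%; whole list 37.4%) and 10 of 26 (38.5%, interval 20.2 to 59.4%; whole list 35.8%). In the *Myc*-*Pvt1* window AP-1 letters were in 13 of 30 regions for Etv4 (43.3%, interval 25.5 to 62.6%) and in 8 of 17 for Etv5 (47.1%, interval 23.0 to 72.2%). At the other genes they were in 5 of 24 for Etv4 (20.8%, interval 7.13 to 42.2%) and in 2 of 9 for Etv5 (22.2%, interval 2.81 to 60.0%), and all 4 intervals hold the share of the whole list. AP-1 letters were in 10 of the 18 Etv4 regions that overlapped an Etv5 region (55.6%, interval 30.8 to 78.5%) and in 8 of the 36 that did not (22.2%, interval 10.1 to 39.2%). Over the whole Etv4 list the corresponding shares were 44.2 and 33.3%. The difference between the member shares was not tested.

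Of the other patterns, RUNX (TGTGGTT or TGTGGTC) was in 13 Etv4 regions (24.1%, interval 13.5 to 37.6%; whole list 24.7%) and in 10 Etv5 regions (38.5%, interval 20.2 to 59.4%; whole list 23.9%). The E-box CACGTG was in 8 and 4 regions (14.8%, interval 6.62 to 27.1%, and 15.4%, interval 4.36 to 34.9%; whole lists 8.26 and 7.67%). At the 7 genes outside the *Myc*-*Pvt1* window it was in 6 of 24 regions for Etv4 (25.0%, interval 9.77 to 46.7%), above the share of the whole list, and in 3 of 9 for Etv5 (33.3%, interval 7.49 to 70.1%). In the window it was in 2 of 30 and 1 of 17. SP1 (GGGCGG) was in 13 and 3 regions (24.1%, interval 13.5 to 37.6%, and 11.5%, interval 2.45 to 30.2%; whole lists 25.1 and 22.6%), and 10 of these 13 Etv4 regions lay within 2 kb of a start. Over the whole Etv4 list, 2517 of the 3421 regions with SP1 letters did. TCF/LEF (CTTTGAT or CTTTGAA) was in 2 Etv4 regions (3.70%, interval 0.452 to 12.7%), below the 15.8% of the whole list. It was in 1 Etv5 region (3.85%, interval 0.0973 to 19.6%; whole list 17.0%). Over the pooled member regions, TCF/LEF in the Etv4 list was the only pattern whose interval did not hold the share of the whole list. With the *Myc*-*Pvt1* window and the other 7 genes taken apart, this was so for the E-box in the Etv4 list at the 7 genes, for TCF/LEF in the Etv4 list at the 7 genes (0 of 24, which allows a share of up to 12.5%) and for SP1 in the Etv5 list in the window (0 of 17, which allows up to 17.6%). The window and the 7 genes also differ in how many regions lie near starts, and the part of this in the pattern shares was not tested. Over the whole Etv4 list the E-box was in 11.9% of regions within 2 kb of a start and 6.14% of those farther away, and TCF/LEF in 11.5 and 18.3%. Of the 24 Etv4 regions at the 7 genes, 13 lay near starts, so the regions there are a mix of both kinds. Over the whole Etv5 list SP1 was in 49.5% near starts and 9.37% farther away, where 15 of the 17 regions of the window lay. E2F (TTTCCCGC, TTTCGCGC, TTTGGCGC or TTTGCCGC) was in 3 and 0 regions (whole lists 2.53 and 2.11%), among them the region over the *Myc* start, with TTTCCCGC. The full Smad box GTCTAGAC was in 1 and 0 regions (whole lists 0.799 and 0.759%). A count of 0 in 26 Etv5 regions allows a share of up to 11.5%.

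Finally, the members were set beside 32 other genes of the same processes: 21 regulators of G1 and of the entry into S phase, and 11 genes of the Myc network, which encode relatives of Myc, its partner Max and the factors that compete for it. Of these 32 genes, 23 had at least 1 Etv4 region inside or within 50 kb (71.9%; all protein-coding genes 53.4%) and 16 at least 1 Etv5 region (50.0%; all 42.7%). Regions of both lists were present at 12 of the 32 (all 36.4%) and an overlapping pair at 8 (25.0%; all 29.5%). An Etv4 midpoint was within 2 kb of the start of 6 genes, and an Etv5 midpoint within 2 kb of the start of 6 (18.8% each; all 15.4 and 8.73%). In the G1 list, 16 of 21 genes had an Etv4 region and 10 an Etv5 region, and in the Myc network list 7 and 6 of 11. The median density over the 32 genes was 0.907 Etv4 and 0.206 Etv5 regions per 100 kb, compared with 0.522 and 0 over all protein-coding genes and with 2.94 and 0.932 over the 8 protein-coding members.

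Of the kinase partners of the cyclins, *Cdk4* had 1 Etv4 and 0 Etv5 regions and *Cdk2* had 2 and 3. *E2f4*, a repressive member of the E2F family, had the most Etv4 regions of the 32 genes, with 8 Etv4 and 3 Etv5 regions and 3 overlapping pairs. *Mxi1* and *Mlx*, which encode factors of the network that opposes or parallels Myc, had 7 Etv4 and 4 Etv5 regions (*Mxi1*) and 5 and 2 (*Mlx*), with 3 and 2 pairs, and 4 was the highest Etv5 count of the 32. *Cdkn2a*, which encodes the inhibitor p16 and the Arf protein, had 4 Etv4 regions and no Etv5 region. *Cdkn1c*, *Rbl2*, *Mycn*, *Max* and *Zbtb17* had none of either list. All genes named here from the 32 were chosen after their values were seen.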

How the data were processed

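ChIP-seq was performed on EpRas cells with 1 library per antibody. The authors mapped reads to mm10 (Bowtie, per the submitters' processing notes; the ChIP-seq methods point to those of the study's FAIRE-seq, which give bowtie2 and reads cut to 36 bp) and called regions per library with the one-sample analysis of CisGenome (window 300 bp, p threshold 0.1), without an input library. The deposited lists give positions, a region number of unstated criterion and a score, which is 1000 in every row of the deposited lists. No counts are given. Genes were taken from GENCODE release M21 on GRCm38, sequence and promoters from RefSeq on the same assembly. Distances from a start were measured from the midpoint of a region. The 50 kb limit and distances from a gene, as opposed to its start, were measured from the nearer edge of a region. Overlap required 1 bp. Patterns were searched in 500 bp. Regions with over 50% of their 36-base sequences occurring more than once were called mostly multicopy. Windows of the *Myc*-*Pvt1* length tiled each chromosome. Printed region by region were regions within 2 kb of a member start, in an overlapping pair or with an ETS match; the rest are given by counts and ranges, and others described singly were chosen after their values were seen. The members and lists were chosen with earlier results of these data known. Functions were tested on simulated data. Tools were Python 3.11.15 with matplotlib 3.10.9, numba 0.67.0, numpy 2.4.6, scipy 1.17.1 and pandas 2.3.3. No test was made.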

Additional observations from a re-analysis of the deposited data

How the results depend on the processing

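Of 52 alternative settings, 39 left the value within the 1.5-fold range set for counts or within the main interval for shares, and 13 moved it. With the longer 50% of each list, 33 Etv4 regions remained at the members in place of 54. Without the *Myc*-*Pvt1* window, overlap with Etv5 was found for 20.8% of Etv4 regions, the share within 2 kb of a start was 54.2% for Etv4 and 44.4% for Etv5, that with AP-1 letters was 20.8% for Etv4, and that with ETS letters was 0% for Etv5. Counting only starts of protein-coding genes left 3.85% of Etv5 regions within 2 kb. The ETS share was 1.85% (Etv4) and 0% (Etv5) with CCGGAAGT alone, the same 1.85 and 0% in a window of 200 bp, and 77.8 and 73.1% with the loose pattern (A or C, GGAA, A or G). Without the mostly multicopy pair, 53 Etv4 and 25 Etv5 regions remained. No paired analysis was possible because the lists come from 1 library for each antibody and no test was made. The unknown depth, the absence of an input library and the single library per antibody limit every count here, and the absence of a region does not show the absence of binding.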

Other observations

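In steps of 1 Mb along chromosome 15 from the *Myc* start, counts were uneven on both sides. The 1 Mb segment that begins 0.5 Mb before the *Myc* start held 26 Etv4 and 14 Etv5 regions with 1 protein-coding gene start. The segment before it held 15 and 5, and the one before that 23 and 16 with 2 protein-coding gene starts. After it came segments with 8 and 5 and with 16 and 16 regions. The segment centred 5 Mb before *Myc* held 25 and 12 regions with 2 gene starts, whereas those centred 4 and 8 Mb after it held 1 and 1 and 0 and 0. High counts at few gene starts were thus not limited to *Myc*.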
